A study of Mus musculus with 6 samples.

Results

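The Gpr1-Zdbf2 locus is an imprinted interval of mouse chromosome 1. It holds Gpr1, which encodes a receptor for chemerin, Platr12, a gene for a long noncoding RNA, and Zdbf2, which encodes a zinc finger protein. The CpGs described here were chosen by position and read depth. Each lies between 63170000 and 63320000 of chromosome 1 in the mm10 build and had at least 10 reads, summed over the 2 replicates, in each of 3 cell types. The position around which the interval was set, 63200437, was known from earlier results of these data, so the levels near it are given as a description. Of 1106981 CpGs of the genome that met the read minimum, 226 lie in the interval, where 250 CpGs had a read in any library.

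DNA methylation was measured by reduced representation bisulfite sequencing (RRBS), in which MspI cuts DNA at CCGG and the ends of short fragments are read after bisulfite treatment, in C-iPSCs, 4F-iPSCs, and mESCs, with 2 libraries each. C-iPSCs came from mouse OG2 embryonic fibroblasts, which carry a fluorescent reporter of Oct4, after serial cocktails of basic fibroblast growth factor, valproic acid, CHIR99021, an inhibitor of the TGF-beta receptor, tranylcypromine, forskolin, AM580, EPZ004777, DZNep, SGC0946, and 5-Aza-2′-deoxycytidine. The last of these is itself an inhibitor of DNA methylation. 4F-iPSCs came from OG2 fibroblasts after retroviral delivery of Oct4, Sox2, Klf4, and c-Myc, and the mESCs were of the E14 line. All cells were male and were held in serum medium with 1000 U/ml LIF and 2i, which is 3 µM CHIR99021 and 1 µM PD0325901. The labels state that feeder fibroblasts were removed on gelatin before collection, while the methods of the study name plates coated with gelatin for culture. C-iPSCs and 4F-iPSCs were at passages 5 to 10 and mESCs at passages 20 to 30, so reprogramming, passage, and genetic background cannot be told apart in comparisons with mESCs. Colonies were picked for both kinds of iPSC, and the number of lines behind the libraries is not given in the sources used here. The labels do not say that replicates were separate cultures, so the spread between replicates may be technical.

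Reads summed over CpGs were 75077465 and 53694199 in the mESC libraries, 91533371 and 84792206 in the C-iPSC libraries, and 96534037 and 94215636 in the 4F-iPSC libraries. A read was counted at each CpG it covered, here and in other sums of reads over CpGs, so these are not numbers of separate reads. The methylation level is the share of reads at a CpG that were methylated. Over the 1106981 compared CpGs the level had a median of 12.1% in 4F-iPSCs, 9.30% in C-iPSCs, and 7.69% in mESCs, and a mean of 33.7%, 28.3%, and 21.7% in the same order. RNA was not analysed here, and the labels were checked through promoters only. The promoters of the pluripotency genes Nanog, Pou5f1, and Zfp42, within 1 kb of a start, had 16 compared CpGs with mean levels of 5.34% and 7.75% in the mESC libraries, 7.18% and 7.40% in the C-iPSC libraries, and 10.1% and 17.8% in the 4F-iPSC libraries. At Pou5f1, which is the gene of Oct4 and has 7 of the 16 CpGs, the median reads per CpG were 2040 in 4F-iPSCs and 2063 in C-iPSCs but 117 in mESCs, and Nanog and Zfp42 had no excess of that size. Both kinds of iPSC carry the reporter of Oct4, so the levels at Pou5f1 may include copies outside the gene, which was not tested, and this check of the labels is weak. Dppa3 and Tdgf1, the other 2 of the 5 pluripotency genes listed, had no compared CpG. The promoters of Dazl, Ddx4, Sycp3, and Mael, germline genes that somatic cells such as feeder fibroblasts methylate, had 173 compared CpGs with mean levels of 39.1% ± 1.59 in 4F-iPSCs, 25.7% ± 2.87 in C-iPSCs, and 17.0% ± 1.14 in mESCs (SD, n = 2). Germline promoters therefore had the same order of levels as the genome, and the part of remaining fibroblasts in any level given here was not tested.

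Imprinted genes are expressed from the allele of a single parent, and the parent is marked by methylation laid down in the egg or the sperm. At the Gpr1-Zdbf2 locus the egg methylates a differentially methylated region (DMR) in Gpr1 that overlaps the start of Platr12. From the unmethylated paternal copy a long transcript runs toward Zdbf2 early in development, and methylation then appears upstream of the Zdbf2 start on the paternal allele, from which Zdbf2 is expressed. ZFP57 binds the methylated hexamer TGCCGC at imprinting control regions and protects their methylation.

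The sequences below are those of both ends of this relation, and they were read from GRCm38, of which mm10 is the other name. In the RefSeq promoter table, Zdbf2 has a distal promoter inside Gpr1 and a proximal promoter, each with 250 bases before and 50 bases after a start. The distal promoter is at chr1:63200108-63200407, plus strand, in an intron of Gpr1, and its part from 63200313 on lies in Platr12. The capitals of the distal promoter mark TGCCGC on either strand. The proximal promoter is at chr1:63273019-63273318, plus strand, and its capitals mark compared CpGs. The Platr12 exon site is at chr1:63200436-63200465, plus strand, in an exon of Platr12 and an intron of Gpr1, and it holds the first 5 CpGs of the fragment on which the comparison of regions rests, in capitals.
distal Zdbf2 promoter: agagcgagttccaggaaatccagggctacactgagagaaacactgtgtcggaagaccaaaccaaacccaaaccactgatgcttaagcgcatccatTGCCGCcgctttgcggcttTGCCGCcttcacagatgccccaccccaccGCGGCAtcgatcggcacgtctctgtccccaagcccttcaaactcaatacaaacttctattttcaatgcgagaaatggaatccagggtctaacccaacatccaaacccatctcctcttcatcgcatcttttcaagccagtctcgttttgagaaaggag
Platr12 exon site: cCGgtattcCGCGtgCGcagtgCGgctcat
proximal Zdbf2 promoter: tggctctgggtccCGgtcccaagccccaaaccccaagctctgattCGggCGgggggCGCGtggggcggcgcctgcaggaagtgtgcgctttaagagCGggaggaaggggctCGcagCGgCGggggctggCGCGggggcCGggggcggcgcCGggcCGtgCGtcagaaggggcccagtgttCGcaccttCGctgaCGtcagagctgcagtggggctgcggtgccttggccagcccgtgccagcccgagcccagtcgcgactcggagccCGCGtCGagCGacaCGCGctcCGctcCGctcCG

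The hexamer TGCCGC was searched on both strands. The distal promoter holds 3 sites, 2 on the plus strand and 1 on the minus strand, and the proximal promoter holds 0. Of the 32851 promoters of 300 bases in the RefSeq table, 3813 (11.6%) hold at least 1 site and 77 (0.234%) hold at least 3. The whole interval holds 15 sites, of which 4 lie in the Gpr1/Platr12 region, and the largest number in any 300-base window of the interval was 3, the first of them at 63200203. A match describes letters and is no evidence of binding. The distal promoter has 15 CpGs, of which 0 had the required reads, so the sites beside the measured fragment were not measured themselves. A single compared CpG of the interval, 63273657 in Zdbf2, lies inside a TGCCGC site.

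The RRBS fragments covered the locus unevenly. The interval has 1752 CpGs in the reference, and the 226 compared CpGs are 12.9% of them. They were divided among 5 regions. The Gpr1/Platr12 region, 5 kb to each side of 63200437 (63195437 to 63205437), had 9 of its 121 CpGs compared (7.44%). The region upstream of Zdbf2, from there to 1 kb before the Zdbf2 start (63205438 to 63272264), had 32 of 770 (4.16%). The Zdbf2 start, 1 kb to each side of 63273265, had 93 of 159 (58.5%), and the Zdbf2 body up to the end of the interval had 7 of 395 (1.77%). The proximal side of the interval, which holds the Ndufs1 and Eef1b2 promoters and the coding end of Gpr1, had 85 of 307 (27.7%). Most compared CpGs therefore lie in promoters, and the span between Gpr1 and Zdbf2 was seen at few points.

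The compared CpGs fall into 10 groups with neighbors at most 300 bp apart, of which 7 have at least 3 CpGs and hold 221 of the 226. Members nearest to the read minimum had low levels. The CpG with the fewest reads among those compared was 63273157, with 11 reads in mESCs and levels of 18.2% in 4F-iPSCs, 8.70% in C-iPSCs, and 9.09% in mESCs. The nearest CpG that missed the minimum was 63177426, with 8 reads in mESCs and levels of 11.1%, 11.8%, and 12.5% in the same order.

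**Figure D1:**
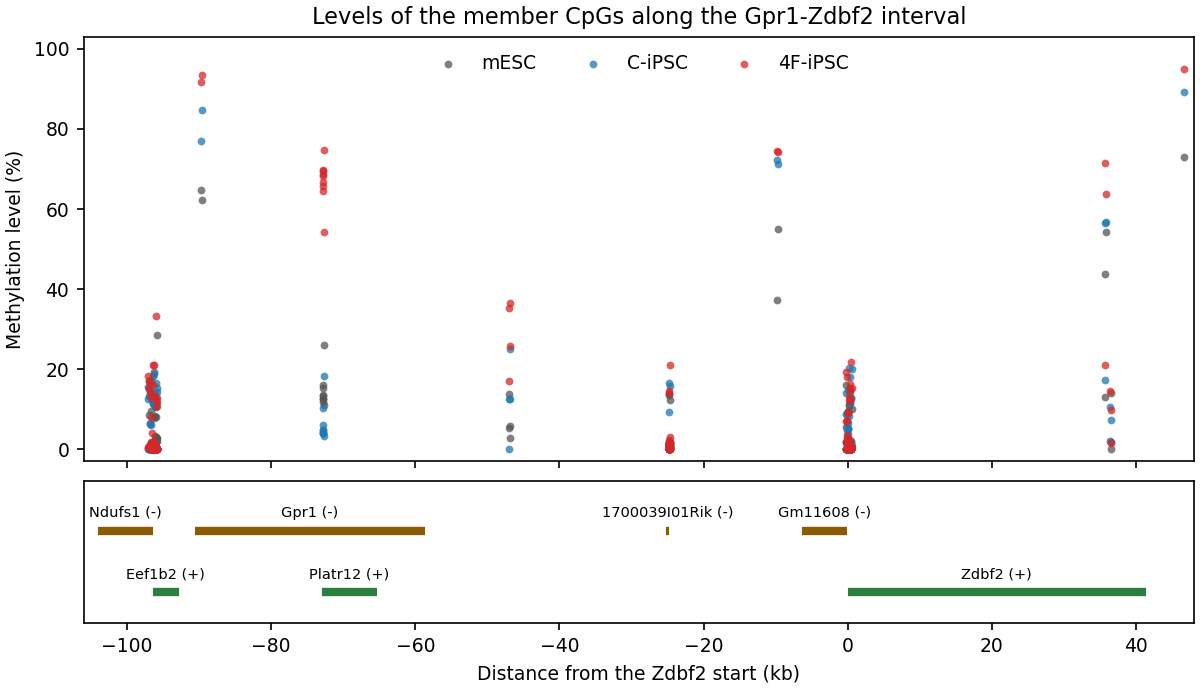
Methylation level in percent (replicates summed) of each of the 226 compared CpGs against the distance from the Zdbf2 start in kb, for mESCs, C-iPSCs, and 4F-iPSCs, above a map of the genes with their strand. The 9 CpGs of Platr12 stand between 54.2% and 74.7% in 4F-iPSCs and at or below 26.0% in mESCs and C-iPSCs, while the CpGs around the Zdbf2 start are low in all 3 cell types.

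The largest difference of 4F-iPSCs from the other cell types was in the Gpr1/Platr12 region, and smaller ones are described below. All of its 9 compared CpGs lie in a single stretch, 63200437 to 63200557, in an exon of Platr12 and an intron of Gpr1, and RefSeq places the first exon of the long Zdbf2 transcripts over it. The mean level of these CpGs was 68.0% and 65.4% in the 4F-iPSC libraries, 18.3% and 9.79% in the mESC libraries, and 6.13% and 7.35% in the C-iPSC libraries. No library of a cell type reached into the values of another, with 4F-iPSCs highest, mESCs next, and C-iPSCs lowest. The means were 66.7% ± 1.83 in 4F-iPSCs, 14.1% ± 6.04 in mESCs, and 6.74% ± 0.862 in C-iPSCs (SD, n = 2). The level in 4F-iPSCs was 52.6 percentage points above that in mESCs and 60.0 points above that in C-iPSCs. The region was placed on results of these data, so nothing is read from the size of these gaps against the SD. The difference of C-iPSCs from mESCs was -7.32 points, larger than the SD of either but smaller than the gap between the mESC libraries. These are bulk libraries without allele information, so a change on a single allele and a change in a share of the cells cannot be told apart.

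Levels over the 9 CpGs ranged from 54.2% to 74.7% in 4F-iPSCs with a median of 68.2%, from 11.02% to 26.0% in mESCs with a median of 13.2%, and from 3.47% to 18.3% in C-iPSCs with a median of 4.79%. With replicates summed, each of the 9 CpGs was higher in 4F-iPSCs than in mESCs, and each was lower in C-iPSCs than in mESCs. The second direction turned at 63200437 and 63200557 in mESC replicate 2 alone. Levels there were 3.1% and 15.8% in that library, and 10.3% and 18.3% in C-iPSCs. The 9 CpGs lie within 121 bp and share reads, so they are not independent of each other. The CpGs had a median of 216 reads in 4F-iPSCs, 118 in mESCs, and 145 in C-iPSCs.

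CpG 63200445, in the Platr12 exon site printed above, shows the counts behind these levels. In 4F-iPSCs 82 of 123 reads were methylated in replicate 1 and 62 of 93 in replicate 2, which is 66.7% with a 95% Wilson interval of 60.1% to 72.6%. In mESCs 12 of 68 and 7 of 51 reads were methylated (16.0%, 10.5% to 23.6%), and in C-iPSCs 4 of 81 and 5 of 64 (6.21%, 3.30% to 11.4%). The interval of 4F-iPSCs lay above both of the others, at a place chosen on results of these data, and those of mESCs and C-iPSCs overlapped. The lowest level in 4F-iPSCs was at 63200549, with 67 of 120 and 48 of 92 reads methylated (54.2%, 47.5% to 60.8%). Each of the 9 CpGs was higher in mESC replicate 1 than in replicate 2, with the widest gap at the first, 63200437, where 8 of 36 reads were methylated in replicate 1 and 1 of 32 in replicate 2. Reads were amplified by PCR and carry no molecular identifiers, so the intervals cover counting error only.

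**Figure D2:**
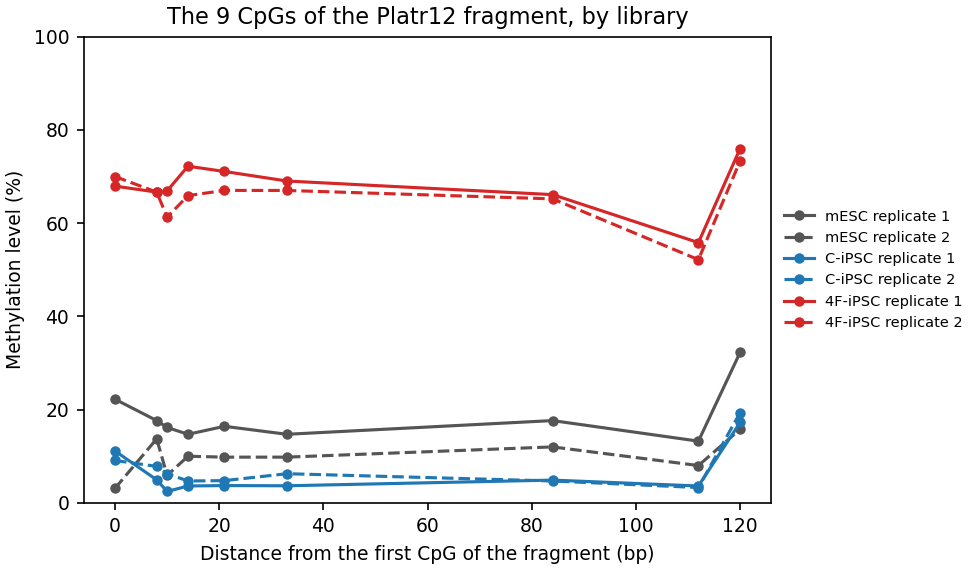
Methylation level in percent of the 9 compared CpGs of the Platr12 exon against the distance in bp from the first of them, with 1 line for each of the 6 libraries. Both 4F-iPSC libraries lie above 50% at each CpG, from 52.2% upward, and no mESC or C-iPSC library exceeds 32.3%.

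Single CpGs were called strongly different where the level difference exceeded about 33 percentage points and Fisher's exact test on summed reads gave an unadjusted p under 0.05. Of the 226 CpGs, 11 were called higher in 4F-iPSCs than in mESCs, 9 in the Gpr1/Platr12 region and 2 upstream of Zdbf2, against 14.3% of all compared CpGs. In 4F-iPSCs against C-iPSCs 9 were called higher, all of them in the Gpr1/Platr12 region, against 1.35% of all compared CpGs. In C-iPSCs against mESCs 1 was called higher, upstream of Zdbf2, against 2.90% of all. Lower levels were called at 0 of the 226 CpGs in these 3 comparisons, against 0.0333% of all compared CpGs for 4F-iPSCs against mESCs, 0.0285% for 4F-iPSCs against C-iPSCs, and 0.0374% for C-iPSCs against mESCs. In 4F-iPSCs against mESCs, the absence of calls on the proximal side and in the Zdbf2 body depended on single libraries. On the proximal side 1 CpG was called higher without mESC replicate 1, mESC replicate 2, or 4F-iPSC replicate 1. In the Zdbf2 body 1 was called higher without mESC replicate 1 or 4F-iPSC replicate 1. The Zdbf2 start stayed at 0 calls whichever library was left out. The locus was placed on results of these data, so nothing is read from these shares.

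A fit that uses the spread between libraries, quasi-binomial regression with limma's shrunken dispersion and adjusted p-values, called the same 11 CpGs higher in 4F-iPSCs than in mESCs and the same 9 in 4F-iPSCs against C-iPSCs. Over all CpGs fitted it called 13.2% and 0.618%. The CpG called by Fisher's exact test in C-iPSCs against mESCs was not called by this fit, which called 1.49% of all CpGs in that comparison. The fit used the same reads, and the Gpr1/Platr12 region was placed on results of these data. It is therefore no separate test of that region, and nothing is read from these calls.

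Among the 32 CpGs compared upstream of Zdbf2, 26 lie in an island with mean levels from 2.00% to 3.01%. Only 2 lie in the 20 kb before the Zdbf2 start. There 4F-iPSCs were 21.3 points above mESCs, whose libraries had 36.5% and 69.4%. Which of the 32 CpGs gain methylation on the paternal allele was not tested. Next to the Gpr1/Platr12 region, the region upstream of Zdbf2 as a whole gave a smaller difference. The mean level, over those of its 32 CpGs that had at least 10 reads in a library, was 10.7% and 10.96% in the 4F-iPSC libraries, 5.31% and 6.77% in the mESC libraries, and 7.33% and 7.18% in the C-iPSC libraries. These means rest on 31 and 31, 28 and 31, and 32 and 28 CpGs in the same order, and C-iPSC replicate 2 lacks the 4 intergenic CpGs described below, so the libraries are compared over partly different CpGs. The 4F-iPSC libraries lay above the others, and C-iPSCs lay above mESCs by 1.22 points, about the spread between the mESC libraries. The means were 10.8% ± 0.161 in 4F-iPSCs, 6.04% ± 1.03 in mESCs, and 7.25% ± 0.111 in C-iPSCs (SD, n = 2). 4F-iPSCs were 4.81 points above mESCs and 3.59 points above C-iPSCs. With CpGs that had 10 reads in every library these became 2.49 and 1.14 points, and without C-iPSC replicate 1 the second became 1.11. The difference of C-iPSCs from mESCs changed sign with the processing, to -0.106 points when the reads of the region were pooled and to -0.121 points without CpGs inside CCGG.

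Taking the region upstream of Zdbf2 away from the Gpr1/Platr12 region within each library gave 57.3 and 54.4 points in 4F-iPSCs, 13.03 and 3.02 in mESCs, and -1.20 and 0.177 in C-iPSCs. The upstream mean averages places of very different level, in C-iPSCs an island at 2.06% and a pair of CpGs at 71.9%, so a contrast near 0 does not mean that the regions were alike. The mean contrast was 55.8 ± 1.99 points in 4F-iPSCs, 8.03 ± 7.07 in mESCs, and -0.511 ± 0.973 in C-iPSCs (SD, n = 2). The contrast in 4F-iPSCs exceeded that in mESCs by 47.8 points and that in C-iPSCs by 56.4 points, and the contrast in C-iPSCs differed from that in mESCs by -8.54 points. A two-sided exact permutation test over libraries gave p = 0.333 for each of these differences, as for the level of either region in each comparison, which is the smallest p that 2 libraries against 2 can give. The Gpr1/Platr12 region was placed with results of these data known, so nothing is read from these p-values.

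The 32 CpGs upstream of Zdbf2 come from 3 places of different level. The first, 63226192 to 63226342, lies in no annotated gene and has 4 CpGs. Their mean level was 30.2% and 26.1% in the 4F-iPSC libraries, 5.77% and 7.73% in the mESC libraries, and 10.1% in C-iPSC replicate 1, while C-iPSC replicate 2 had at most 4 reads at each and gave no mean. Levels were higher in 4F-iPSCs than in mESCs at each of these 4 CpGs, with 17.1% to 36.7% in 4F-iPSCs and 2.86% to 13.9% in mESCs. CpG 63226342 was called, with 11 of 30 reads methylated in 4F-iPSCs and 1 of 35 in mESCs, a difference of 33.8 points that only just passed the threshold. Without 4F-iPSC replicate 1 it was not called. The median of 32.5 reads in 4F-iPSCs, 35.5 in mESCs, and 16 in C-iPSCs leaves wide intervals, such as 21.9% to 54.5% for that CpG in 4F-iPSCs.

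The second place is the CpG island of the transcript 1700039I01Rik, 63248395 to 63248566, with 26 CpGs. Mean levels there were 3.01% ± 1.12 in 4F-iPSCs, 2.00% ± 0.554 in mESCs, and 2.06% ± 0.274 in C-iPSCs (SD, n = 2), within the spread between replicates. The third is a pair of CpGs, 63263509 and 63263638, less than 10 kb before the Zdbf2 start. They lie in no gene of the GENCODE annotation, and the first lies in an exon of a long RefSeq transcript of Zdbf2. The mean level of the pair was 78.3% and 70.1% in the 4F-iPSC libraries, 67.7% and 76.1% in the C-iPSC libraries, and 36.5% and 69.4% in the mESC libraries. The pair was thus the most methylated place upstream of Zdbf2 in each cell type, and a single mESC library stood below the other 5 libraries.

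CpG 63263509 was the 1 CpG called in both comparisons with mESCs, which share the mESC libraries. Its level was 74.4% in 4F-iPSCs, 72.3% in C-iPSCs, and 37.2% in mESCs, where 9 of 33 reads were methylated in replicate 1 and 7 of 10 in replicate 2. Without mESC replicate 1, the number of CpGs called upstream of Zdbf2 was 0 in both comparisons. It was also 0 without 4F-iPSC replicate 1 in 4F-iPSCs against mESCs, and without C-iPSC replicate 2 in C-iPSCs against mESCs. Its neighbor 63263638 had 74.2% in 4F-iPSCs, 71.3% in C-iPSCs, and 55.1% in mESCs and was not called.

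**Figure D3:**
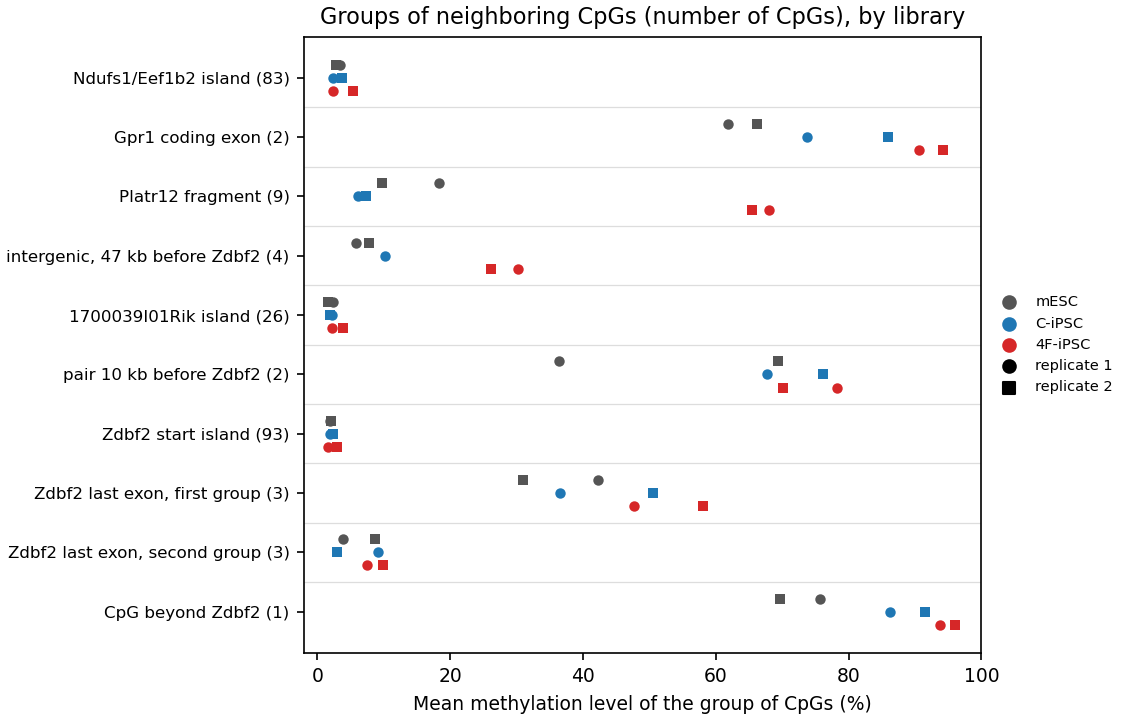
Mean methylation level in percent of each of the 10 groups of neighboring CpGs, with the number of CpGs in parentheses, for each library (circles, replicate 1; squares, replicate 2). The 4F-iPSC libraries stand far to the right of the others at the Platr12 fragment, with 68.0% and 65.4%, and the 3 island groups stay near 0 in all 6 libraries.

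The Zdbf2 start itself was nearly unmethylated in all 3 cell types. Its CpG island, 63273032 to 63273785, spans the promoter printed above, the 5′ untranslated exon, and the start of the following intron, and 93 CpGs were compared. Mean levels were 1.95% and 2.05% in the mESC libraries, 1.96% and 2.41% in the C-iPSC libraries, and 1.61% and 3.03% in the 4F-iPSC libraries. The libraries overlapped, and the difference between 4F-iPSCs and mESCs was 0.321 points against an SD of 1.00 in 4F-iPSCs. In the proximal promoter alone, 27 compared CpGs had 27 methylated reads of 1633 in 4F-iPSCs (1.65%), 36 of 1720 in C-iPSCs (2.09%), and 15 of 1367 in mESCs (1.10%). The median over these CpGs was 0% in each cell type.

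What methylation was called in the low islands lay mostly at CpGs inside CCGG, the sequence that MspI cuts. In the islands of Ndufs1/Eef1b2, 1700039I01Rik, and Zdbf2 together, 33 CpGs inside CCGG had mean levels between 10.0% and 20.7% in the 6 libraries. The 169 other CpGs of these islands had mean levels between 0.472% and 0.810%. The cause was not tested. In the Platr12 fragment the 7 CpGs outside CCGG had 66.8% and 63.6% in the 4F-iPSC libraries, 15.8% and 9.89% in the mESC libraries, and 3.84% and 5.39% in the C-iPSC libraries. The 2 CpGs inside CCGG had 72.0% and 71.7%, 27.2% and 9.46%, and 14.18% and 14.22% in the same order, so mESC replicate 2 was below both C-iPSC libraries there. Also inside CCGG are the pair before the Zdbf2 start, the first CpG of the intergenic group, 63226192, and, among the places described below, the pair in the Gpr1 coding exon and CpG 63319958.

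**Figure D4:**
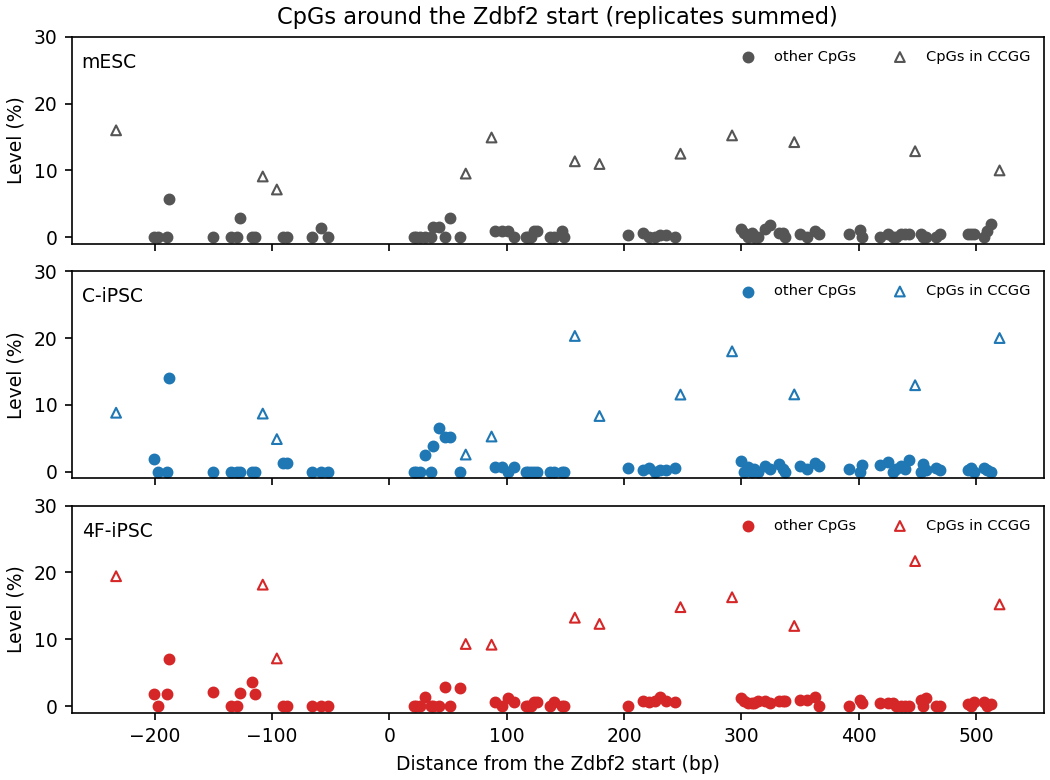
Methylation level in percent (replicates summed) of the 93 compared CpGs around the Zdbf2 start against the distance from that start in bp, with 1 panel for each cell type. Triangles are CpGs inside CCGG and circles are the others. The highest CpG in 4F-iPSCs is at 21.7%, and most circles lie near 0 in all 3 panels.

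Beyond the start, the coding part of the last Zdbf2 exon gave 2 groups of 3 CpGs. In the first, 63308950 to 63309055, mean levels were 52.9% ± 7.43 in 4F-iPSCs, 43.6% ± 9.90 in C-iPSCs, and 36.6% ± 8.04 in mESCs (SD, n = 2). Neighbors in this order differed by about the spread between replicates. CpG 63309009, in the middle of the group, had 21.1%, 17.4%, and 13.1% in the same order, with 374, 368, and 274 reads, below both of its neighbors. It is the only CpG of the group outside CCGG. The second group, 63309710 to 63309823, had 8.70% ± 1.72, 6.05% ± 4.27, and 6.22% ± 3.41, which overlapped. The last CpG of the interval, 63319958, lies beyond Zdbf2 and had 93.8% and 96.0% in the 4F-iPSC libraries, 86.3% and 91.6% in the C-iPSC libraries, and 75.7% and 69.6% in the mESC libraries. No library of a cell type reached into the values of another there, and no comparison of that CpG passed the threshold on the difference.

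On the other side of the DMR, a pair of CpGs in the coding exon of Gpr1, 63183548 and 63183629, was methylated in all 3 cell types. Mean levels were 90.7% and 94.2% in the 4F-iPSC libraries, 73.8% and 86.0% in the C-iPSC libraries, and 61.8% and 66.2% in the mESC libraries. C-iPSCs thus stood between mESCs and 4F-iPSCs in the body of Gpr1, but below both at the Platr12 fragment inside the same gene. Whether the order of cell types differs between these places was not tested. The CpG island shared by Ndufs1, which encodes a subunit of respiratory complex I, and Eef1b2, which encodes a translation elongation factor, has 83 compared CpGs at 63176199 to 63177416. Mean levels there were 3.86% ± 2.08 in 4F-iPSCs, 3.04% ± 0.928 in C-iPSCs, and 3.12% ± 0.403 in mESCs (SD, n = 2), and the median CpG was under 1% in each cell type, at 0.592%, 0.327%, and 0.388%.

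The measured places differ in sequence. In the 500 bp around its center, the Zdbf2 island has a GC content of 79.0% and an observed to expected ratio of CpGs of 1.02, and the Ndufs1/Eef1b2 island has 58.0% and 0.978. The Platr12 fragment has 49.6% and 0.797. The methylated pairs have fewer CpGs, with a ratio of 0.254 in the Gpr1 exon and 0.339 before the Zdbf2 start. The Platr12 fragment thus lies between the islands and the methylated pairs in CpG content.

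The locus was set beside promoters of other genes with a germline DMR methylated in the egg. All compared CpGs within 1 kb of any annotated start of a gene were pooled, here and in the list below. CpGs outside the DMR can be among them, so a low mean does not show that the DMR was unmethylated. At Peg3, a zinc finger gene, 5 CpGs had mean levels of 60.1% ± 5.39 in 4F-iPSCs, 39.9% ± 4.86 in mESCs, and 8.01% ± 2.74 in C-iPSCs. At Plagl1, which encodes a zinc finger regulator of growth, 43 CpGs had 55.1% ± 4.97, 41.3% ± 2.57, and 7.71% ± 3.25 in the same order. At Airn, a noncoding RNA gene antisense to Igf2r, 17 CpGs had 59.1% ± 5.48, 33.0% ± 3.17, and 4.49% ± 1.30 (SD, n = 2). The 4F-iPSC levels at these 3 promoters were below the 66.7% of the Platr12 fragment, and the mESC levels were above its 14.1%. The C-iPSC levels lay on both sides of its 6.74%. Some other listed promoters, looked up after their values were seen, had lower mESC levels than these 3. They were below 14.1% at Grb10 (1.69%), Nespas (4.90%), Inpp5f (5.70%), and Mcts2 (8.07%). They were above it at Zrsr1 (20.2%), Mest (20.4%), Nnat (21.4%), and Slc38a4 (22.4%). They were also above it at Usp29 (24.2%), Peg10 and Sgce (25.3%, shared CpGs), Nap1l5 (26.2%), and Kcnq1ot1 (31.1%). Levels in 4F-iPSCs were also lower at others, with 2.81% at Grb10, 8.55% at Nespas, 16.6% at Inpp5f, 21.2% at Slc38a4, 24.8% at Mcts2, and 34.0% at Kcnq1ot1, while Peg13 had 67.9% in 4F-iPSCs, 78.2% in mESCs, and 52.8% in C-iPSCs. Besides Peg13, the listed levels in 4F-iPSCs nearest to 66.7% were 62.7% at Nap1l5 and 60.2% at Peg10 and Sgce. Zrsr1 had 52.5% and Nnat had 52.2% in 4F-iPSCs. The comparison with the Platr12 fragment thus depends on the genes chosen in each cell type, and it was not tested.

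Calls followed these levels. In 4F-iPSCs against C-iPSCs, 5 of 5 CpGs of Peg3, 37 of 43 of Plagl1, and 17 of 17 of Airn were called higher. In 4F-iPSCs against mESCs 1, 0, and 1 were called higher, where 9 of 9 were in the Gpr1/Platr12 region. Other listed promoters, again looked up afterwards, had more such calls, with 9 of 11 CpGs that Peg10 and Sgce share, 12 of 16 at Nap1l5, 25 of 47 at Zrsr1, and 11 of 26 at Nnat. In C-iPSCs against mESCs 1 CpG of Peg3, 25 of Plagl1, and 4 of Airn were called lower, as were 34 of the 433 CpGs of the list described next, beside 0.0374% of all compared CpGs. Of 19 genes listed with an egg-methylated DMR, 18 had compared CpGs within 1 kb of a start, 433 in all, and Cdh15 had 0. Grb10 gave 104 of the 433 and Inpp5f gave 57. Of these 433 CpGs 63 were called higher in 4F-iPSCs than in mESCs (14.5%) and 177 in 4F-iPSCs than in C-iPSCs (40.9%), beside 14.3% and 1.35% of all compared CpGs. The median level over the list was 34.9% in 4F-iPSCs, 13.3% in mESCs, and 2.90% in C-iPSCs, beside 12.1%, 7.69%, and 9.30% over all compared CpGs.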

How the data were processed

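RRBS libraries of C-iPSCs, 4F-iPSCs, and mESCs (2 each) were analysed from processed files. The authors aligned reads to mm10 with BSMAP 2.90, per the submitters' processing notes, and deposited counts of total and of methylated reads at every CpG. The fraction that they deposited beside the counts, made from reads aligned with BSMAP 2.90, was not used for the levels given here. Conversion, trimming, and strand filters are those of the authors, and PCR duplicates were not examined here. A CpG was compared where each cell type had 10 or more reads in its replicates together. Region levels average the CpGs that had 10 or more reads in a given library. Calls used Fisher's exact test on summed reads (unadjusted p under 0.05, difference above 33.3 points) and quasi-binomial regression with Benjamini-Hochberg adjustment over all CpGs (Python 3.11.15, scipy 1.17.1, statsmodels 0.14.6, R 4.3.3, limma 3.58.1). The regression was also run on simulated data, and no result given here rests on that. All genes that GENCODE M21 places in the interval were eligible for naming, and single CpGs named were the called ones, those at the read minimum, and others picked after their values were seen. The locus and the gene lists were chosen with earlier results of these data known. Alternatives changed the read minimum, strand, region limits, averaging, call rule, replicate block, and libraries used.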

Additional observations from a re-analysis of the deposited data

Results flagged for a closer look

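At the Gpr1/Platr12 region C-iPSC libraries lay below and 4F-iPSC libraries above both mESC libraries. C-iPSCs differed from mESCs by -7.32 percentage points and 4F-iPSCs by 52.6 points. The first is smaller than the gap between the mESC libraries and was -3.05 points without mESC replicate 1. The position of the region was chosen with earlier results known. Both differences use the same mESC libraries. 4F-iPSCs differed from C-iPSCs by 60.0 points. A two-sided exact permutation test over libraries gave p = 0.333 for that difference, the smallest possible here. Both the Fisher and the limma calls took in all 9 CpGs. Because the region was placed with results of these data known, nothing is read from that p or those calls.

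Reads outside the comparison also carried methylation. Upstream of Zdbf2, 17 CpGs with reads missed the read minimum. Summed over them, 30 of 52 reads (57.7%) were methylated in 4F-iPSCs, 12 of 33 (36.4%) in mESCs, and 12 of 43 (27.9%) in C-iPSCs. In 4F-iPSCs 27 of 39 reads were methylated in replicate 2 and 3 of 13 in replicate 1. CpG 63248443 alone, in the island of 1700039I01Rik, gave 33 of the 43 C-iPSC reads, 18 of the 4F-iPSC reads, and 4 of the mESC reads. Without it, 26 of 34 reads (76.5%) were methylated in 4F-iPSCs, 11 of 29 (37.9%) in mESCs, and 5 of 10 in C-iPSCs, so the order of the last 2 turned. The libraries covered different CpGs among the 17, and the part of this in the values was not tested.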

How the results depend on the processing

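In all, 702 values were recomputed under 21 alternatives. For the 21 results on the Gpr1/Platr12 region, the region upstream of Zdbf2, and their contrast, 267 values stayed within the spread between replicates or within 1.5 times a count, 36 moved further, and 3 changed sign. Some that stayed could not move. Regions of 2 kb or 10 kb to each side and a minimum of 5 reads kept the same 9 and 32 CpGs. The 20 kb setting leaves the Gpr1/Platr12 level untouched. Counts that stayed at 0 also entered as unchanged, so the tally alone does not measure stability. For the other regions 382 stayed and 14 moved. Of these, 7 were counts of calls in 4F-iPSCs against mESCs, from 0 to 2 on the proximal side and from 0 to 1 in the Zdbf2 body above a difference of 0.25, and to 1 without single libraries (proximal side, either mESC replicate or 4F-iPSC replicate 1; Zdbf2 body, replicate 1 of either). In the Zdbf2 body the level of 4F-iPSCs minus mESCs (11.2 points) became 16.3 with pooled reads, 5.12 on the minus strand, and 4.47 outside CCGG, that of C-iPSCs minus mESCs (5.25) became 9.43 and 1.04 with the first 2 of these, and that of 4F-iPSCs minus C-iPSCs (5.96) became 1.57 outside CCGG. At the Zdbf2 start C-iPSCs minus mESCs (0.185) became 0.516 without C-iPSC replicate 1. The 9 calls of the Gpr1/Platr12 region in 4F-iPSCs against mESCs and against C-iPSCs became 8 on either strand alone, where 8 CpGs were tested, and 7 outside CCGG, where 7 were tested. Above a difference of 0.5 the first became 7, and the other alternatives for calls gave 9. Leaving out each library in turn gave 48.4 to 56.9 points for 4F-iPSCs minus mESCs there, -11.6 to -3.05 for C-iPSCs minus mESCs, and 58.7 to 61.2 for 4F-iPSCs minus C-iPSCs.

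The region upstream of Zdbf2 depended on the processing. For 4F-iPSCs minus mESCs (4.81 points), a minimum of 20 reads gave 2.75, 10 reads in each library 2.49, pooled reads 2.36, the plus strand 3.62, the minus strand 1.74, the 20 kb before the Zdbf2 start 21.3, CpGs outside CCGG 2.65, and leaving out each library 4.08 to 6.13. For 4F-iPSCs minus C-iPSCs (3.59), the same settings gave 1.10, 1.14, 2.47, 4.34, 1.14, 2.27, and 2.77, and 1.11 to 3.51. For C-iPSCs minus mESCs (1.22), the sign changed with pooled reads (-0.106), on the plus strand (-0.720), and outside CCGG (-0.121), the 20 kb gave 19.0, and leaving out each library 0.736 to 2.41. The setting outside CCGG was chosen after seeing the data, and the setting of 20 kb rests on 2 CpGs. Otherwise the cause was not tested.

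The contrast between the regions became 31.4 and -26.3 points with the 20 kb for 4F-iPSCs and C-iPSCs minus mESCs, and for 4F-iPSCs minus C-iPSCs 58.9 with 20 reads and 58.8 with 10 reads in each library. Leaving out each library gave 42.2 to 52.8, -14.0 to -3.78, and 55.2 to 58.2. The 2 calls upstream of Zdbf2 in 4F-iPSCs against mESCs became 1 with 20 reads, with 10 reads in each library, and outside CCGG, 0 on the minus strand and above a difference of 0.5, and 0 to 2 without a library (0 without mESC replicate 1 or 4F-iPSC replicate 1). The 1 call in C-iPSCs against mESCs became 0 on the minus strand, above 0.5, with limma, and outside CCGG, and 0 to 1 without a library (0 without mESC replicate 1 or C-iPSC replicate 2).

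With the replicate number as a block (Cochran-Mantel-Haenszel test), 0 of 30 counts of calls changed, with 9 calls in the Gpr1/Platr12 region as before. The numbers do not pair the samples in the labels, and deviations from group means correlated across 957681 CpGs by r = -0.226 between 4F-iPSCs and mESCs, 0.041 between C-iPSCs and mESCs, and 0.118 between both kinds of iPSC. Depth limited most the intergenic CpGs from 63226192 to 63226342, and of the 1752 reference CpGs of the interval 226 were compared. With 2 libraries a cell type, an exact permutation test cannot pass 0.05.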

Other observations

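The difference between CpGs inside and outside CCGG was not particular to the locus. Among the CpGs of chromosome 1 with a level under 30% in all 3 cell types, 7632 inside CCGG had mean levels between 9.93% and 19.6% in the 6 libraries, and 31128 others had between 1.06% and 1.89%. In both sets 4F-iPSC replicate 2 was the highest, with 19.6% and 1.89%. These values were looked at after the islands of the locus had been seen, and the cause was not tested.

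The single compared CpG inside a TGCCGC site, 63273657, had levels of 0% in 4F-iPSCs, 0.461% in C-iPSCs, and 0.452% in mESCs. It lies in the unmethylated island of Zdbf2.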
